A study of Mus musculus with 6 samples.

Results

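The genes described here are inhibitors that hold Wnt signalling in check and receptors that raise a cell's response to it. They are Nkd1, Nkd2, Axin2, Lgr4, Lgr5, Tnfrsf19, Sfrp1, Sfrp2, Shisa2 and Znrf3. Every probe set whose annotation gave 1 of these symbols and no other was taken, which gave 27 of 45037 probe sets and 10 of the 18193 genes so named. The members were chosen by their Olig2-/- minus Olig2+/+ differences on these same arrays, so those differences are a description and no test is read from them. RNA was taken from mouse ventral forebrain at E13.5 (embryonic day, counted from the mating) from embryos either lacking the transcription factor Olig2 (Olig2-/-, replicates 2, 4 and 5) or carrying both normal alleles (Olig2+/+, replicates 1, 4 and 5). RNA of 3 brains was pooled for each array. The design text states 5 replicates per genotype, of which 3 each were analysed here. Neither strain nor construction of the Olig2 allele is stated in the labels, and the sample labels name the tissue as ventral telencephalon.

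In the Wnt/beta-catenin pathway, a secreted Wnt binds a Frizzled receptor and an LRP co-receptor, the complex that destroys beta-catenin is held back, and beta-catenin enters the nucleus to act with TCF/LEF factors. Among the genes this switches on are several that turn the pathway down again, such as Axin2, Nkd1 and Znrf3, and their transcript levels are widely used as a readout of signalling. R-spondins, bound by Lgr receptors, remove the ligase Znrf3 from the cell surface and so leave more Frizzled there. In the embryonic forebrain, Wnt signals from the dorsal midline help to pattern the telencephalon and the diencephalon.

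The Olig2 probe set, the check of the labels, read 7.48, 7.53 and 7.76 on the Olig2-/- arrays and 8.20, 8.22 and 8.42 on the Olig2+/+ arrays (log2), with no overlap. Whether the deletion covers its target sequence is not stated, so it is an incomplete check. Olig1, also on chromosome 16, read 8.47, 8.55 and 8.02 in Olig2-/- and 7.17, 6.48 and 6.30 in Olig2+/+. It was thus higher by 1.69 (SE 0.27), with no overlap, and the cause was not tested. Of the tissue's markers, Dlx1 averaged 11.16 ± 0.11 in Olig2-/- and 11.28 ± 0.17 in Olig2+/+ (log2, SD, n = 3 each), whereas Nkx2-1, which marks the medial part of the ventral telencephalon, was near the floor, between 2.69 and 3.36 on the 6 arrays. Other genes of that medial part were bright: Lhx8 averaged 10.18 ± 0.07 in Olig2-/- and 10.06 ± 0.12 in Olig2+/+, and Lhx6 averaged 8.38 ± 0.14 in Olig2-/- and 8.71 ± 0.34 in Olig2+/+ (log2, SD, n = 3 each). The libraries did not sort cleanly by genotype. Over the 22565 probe sets measured, Olig2-/- replicate 2 correlated best with Olig2+/+ replicate 4 (Pearson r = 0.9943 across probe sets, which are not independent), above its 0.9837 and 0.9854 with the other Olig2-/- arrays. Olig2+/+ replicate 1 stood farthest from the rest, at 0.9737 to 0.9849. Member differences, counts of separate probe sets and marker levels are therefore also given without these arrays. The labels do not say whether replicates shared litters, so the spread is that between these pooled samples. In bulk tissue, fewer cells of a type and less RNA per cell cannot be told apart.

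Promoter windows from RefSeq (GRCm38.p6, 250 bases before to 50 after an annotated start) were matched by symbol for 7 of the 10 genes, in 8 windows; none was at hand for Lgr5, Sfrp1 and Znrf3. Windows are shown for 5 of the genes with the larger measured differences between the genotypes, because the TCF/LEF site is the element through which beta-catenin acts and Olig2 belongs to the bHLH family, which binds E-boxes. The searched TCF/LEF core was CTTTGAA or CTTTGAT, or else CTTTGTA or CTTTGTT, and the E-box forms were CAGCTG and CATATG, each on both strands, and no match of 1 kind overlapped a match of the other. Tnfrsf19 has a pair of annotated starts; the window of its outer start, chr14:61046806-61047105, held no match of either kind and is not printed. Matches are in capitals, and each window runs 5′ to 3′ along its gene.
Nkd1, chr8:88527383-88527682, plus strand: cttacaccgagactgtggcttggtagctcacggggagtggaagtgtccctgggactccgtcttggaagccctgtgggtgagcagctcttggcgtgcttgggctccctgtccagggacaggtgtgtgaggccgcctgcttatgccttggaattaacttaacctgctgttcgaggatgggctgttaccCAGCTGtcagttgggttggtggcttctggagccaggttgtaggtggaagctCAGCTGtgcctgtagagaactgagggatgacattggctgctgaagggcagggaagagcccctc
Axin2, chr11:108920099-108920398, plus strand: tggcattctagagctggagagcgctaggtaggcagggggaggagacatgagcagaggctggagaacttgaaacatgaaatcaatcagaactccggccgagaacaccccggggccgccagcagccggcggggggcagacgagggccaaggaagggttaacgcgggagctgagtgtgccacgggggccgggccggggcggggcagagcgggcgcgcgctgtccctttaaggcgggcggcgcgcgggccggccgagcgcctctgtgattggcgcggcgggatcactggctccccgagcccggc
Tnfrsf19, start inside the gene, chr14:61037938-61038237, minus strand: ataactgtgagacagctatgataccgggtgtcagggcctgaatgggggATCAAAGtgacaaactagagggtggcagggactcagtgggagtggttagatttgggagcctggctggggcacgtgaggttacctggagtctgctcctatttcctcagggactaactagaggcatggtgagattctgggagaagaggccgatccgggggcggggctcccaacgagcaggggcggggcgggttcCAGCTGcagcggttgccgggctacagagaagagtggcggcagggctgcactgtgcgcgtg
Lgr4, chr2:109917397-109917696, plus strand: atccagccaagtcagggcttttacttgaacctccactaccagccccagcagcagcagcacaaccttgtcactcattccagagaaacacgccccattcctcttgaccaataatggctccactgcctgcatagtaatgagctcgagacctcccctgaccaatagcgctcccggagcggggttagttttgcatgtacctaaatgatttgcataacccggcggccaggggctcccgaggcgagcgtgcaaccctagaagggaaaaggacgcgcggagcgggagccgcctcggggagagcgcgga
Shisa2, chr14:59625031-59625330, plus strand: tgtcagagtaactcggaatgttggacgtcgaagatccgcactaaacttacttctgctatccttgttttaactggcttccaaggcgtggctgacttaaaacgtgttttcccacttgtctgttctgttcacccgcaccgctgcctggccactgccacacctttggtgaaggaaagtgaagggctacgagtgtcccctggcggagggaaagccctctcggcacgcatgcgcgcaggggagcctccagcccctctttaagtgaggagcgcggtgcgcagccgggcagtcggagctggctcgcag
The TCF/LEF core occurred in 1 of the 8 windows, that of the inner Tnfrsf19 start, as CTTTGAT on the strand opposite to the gene with its first base at -202 from the start, against 16.9% of 32851 promoter windows of the same length. An E-box form occurred in 2 windows, at -64 and -13 in Nkd1 and at -10 in the inner Tnfrsf19 window, against 19.8% of all windows. A match describes letters, not binding, and sites farther from the start lie outside these windows. None of the 10 genes is on chromosome 16, where Olig2 and Olig1 lie.

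Values below are log2 expression per probe set, and a probe set counted as measured if it exceeded its array's median on at least 3 of the 6 arrays, without regard to genotype. This left 17 of the 27 probe sets, covering 8 of the 10 genes, and 16 of the 17 were above the median on all 6 arrays; the exception, a dim Sfrp1 probe set, was above it on 5. The 10 probe sets left out never exceeded 2.95. They held all 4 of Nkd2, the second Naked cuticle homologue, which read 2.27 to 2.64, and both of Lgr5, an R-spondin receptor known from intestinal stem cells, which read 2.27 to 2.79. These arrays thus gave no usable level for either gene, which does not show that they are silent. Of the 17 measured probe sets, 6 had every Olig2-/- array above every Olig2+/+ array, against 8.96% of all 22565 measured probe sets, and 5 had every Olig2-/- array below, against 7.25%. A difference of at least 0.5 was seen in 6 of the 17 upward (2.79% of all) and in 4 downward (3.98%). By each gene's brightest probe set, 5 of the 8 genes were higher (49.3% of all 10630 genes measured), 4 of them with separate groups (8.45%), and 2 of the 3 lower ones had separate groups (7.96%). Without Olig2-/- replicate 2 and Olig2+/+ replicate 4, which leaves fewer arrays to separate, the same 17 probe sets gave 6 above and 5 below, against 25.6% and 23.3% of all measured probe sets. Without Olig2+/+ replicate 1 they also gave 6 and 5, against 12.1% and 10.1%. The genes were chosen with this contrast in view, so nothing is read from those counts. No probe set on the array, members included, passed an adjusted p of 0.05 in limma (0% of 22565; the smallest adjusted p was 0.511), while 2121 probe sets (9.4%) had an unadjusted p below 0.05.

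**Figure D1:**
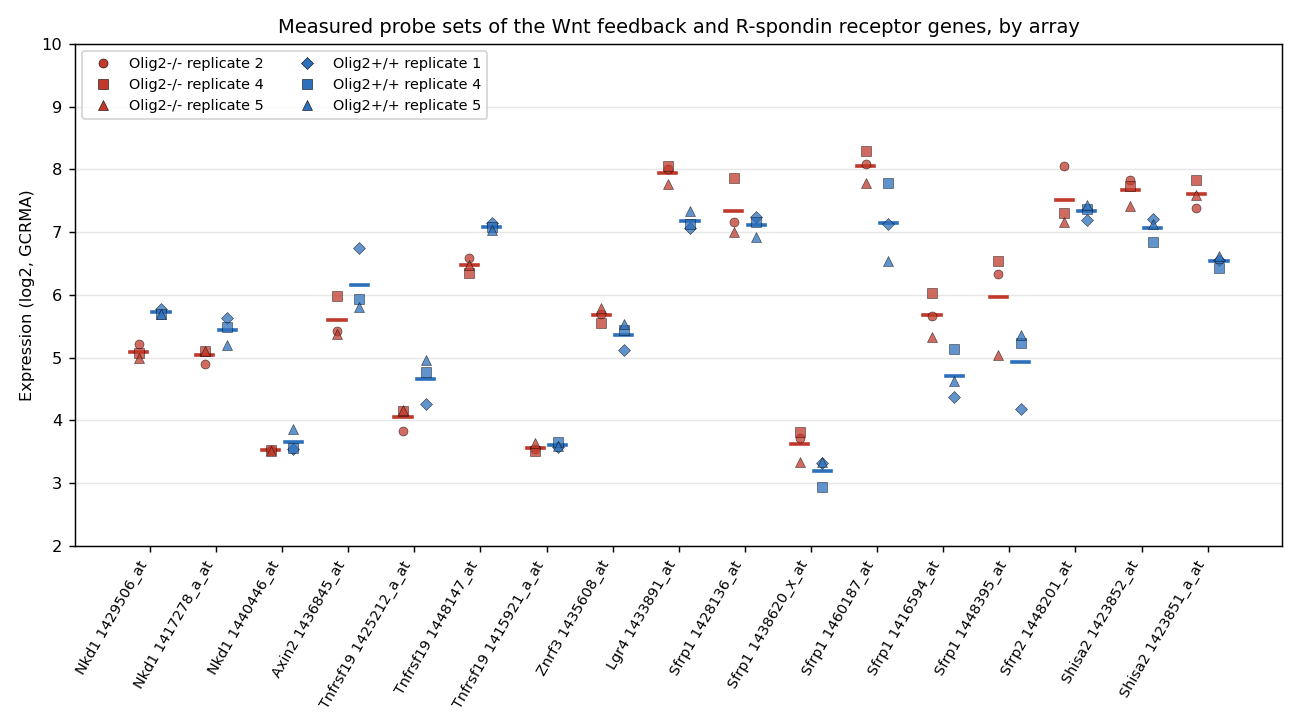
Expression (log2, GCRMA) of the 17 measured probe sets on each array. Red points are Olig2-/- arrays and blue points Olig2+/+ arrays, the shape gives the replicate number and the bar the mean of 3. The Nkd1, Axin2 and Tnfrsf19 means are lower in Olig2-/-, and the Znrf3, Lgr4, Sfrp1, Sfrp2 and Shisa2 means are higher.

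Of the intracellular feedback genes, Nkd1 and Axin2 read lower in Olig2-/-, with clearly different tightness. Nkd1 binds Dishevelled and dampens the signal passed on from the receptor. Its brightest probe set, 1429506_at, read 5.22, 5.08 and 4.99 in Olig2-/-, against 5.78, 5.70 and 5.69 in Olig2+/+. The genotypes were 0.48 apart at their nearest arrays, and the Olig2+/+ arrays spanned less than 0.1. The log2 difference was -0.63 (SE 0.08, 95% interval -0.83 to -0.43), a 1.55-fold lower level. A second probe set, 1417278_a_at, read 4.89, 5.11 and 5.11 in Olig2-/- and 5.63, 5.49 and 5.20 in Olig2+/+. Its groups did not overlap either, though Olig2+/+ replicate 5 came within 0.1 of the Olig2-/- arrays, and the difference was -0.40 (SE 0.13). The third measured probe set, 1440446_at, was dim and differed by -0.12 (SE 0.10). It gave 1 identical value (3.53, to 4 decimals) on 2 Olig2-/- arrays, as 14.2% of measured probe sets did on at least 2 arrays, so its order of arrays is not informative. The mean over the 3 probe sets was -0.38.

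Axin2 is the scaffold of the beta-catenin destruction complex and a target of beta-catenin itself. Its measured probe set, 1436845_at, read 5.42, 5.98 and 5.38 in Olig2-/-, against 6.74, 5.93 and 5.80 in Olig2+/+. The groups overlapped, since Olig2-/- replicate 4 was above 2 of the Olig2+/+ arrays, and Olig2+/+ replicate 1 alone was far above the rest. The difference of -0.56 (SE 0.30, 95% interval -1.30 to 0.17) became -0.27 without that array. The other Axin2 probe set was not measured, at 2.34 to 2.73.

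Tnfrsf19, also called Troy, is a receptor of the tumour necrosis factor receptor family. In mouse intestinal stem cells it is known as a Wnt target that binds Lgr5 and restrains Wnt signalling. Probe set 1448147_at read 6.58, 6.36 and 6.48 in Olig2-/-, against 7.14, 7.08 and 7.04 in Olig2+/+. Every Olig2-/- array was below every Olig2+/+ array and both groups were tight, with SDs of 0.11 and 0.05. The difference was -0.61 (SE 0.08, 95% interval -0.82 to -0.41), a 1.53-fold lower level. The dimmer 1425212_a_at read 3.83, 4.14 and 4.17 in Olig2-/- and 4.26, 4.78 and 4.96 in Olig2+/+, a difference of -0.62 (SE 0.20). Its groups were separate by less than 0.1. The third probe set, 1415921_a_at, lay between 3.51 and 3.65 on all arrays and differed by -0.04 (SE 0.07), with overlap.

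On the receptor side, Lgr4 and Znrf3 both read higher in Olig2-/-. Lgr4 binds R-spondins and, through them, opposes Znrf3. Probe set 1433891_at read 8.0, 8.05 and 7.76 in Olig2-/-, against 7.07, 7.12 and 7.34 in Olig2+/+. The lowest Olig2-/- array was 0.42 above the highest Olig2+/+ array. The difference was 0.76 (SE 0.12, 95% interval 0.48 to 1.05), a 1.70-fold higher level. Only this probe set bears on Lgr4, because the other read 2.27 on all 6 arrays. Znrf3, the ligase that takes Frizzled off the surface and is itself a Wnt target, read 5.70, 5.55 and 5.79 in Olig2-/- and 5.12, 5.44 and 5.54 in Olig2+/+ (1435608_at). Its groups touched but did not overlap, with 5.5534 on the lowest Olig2-/- array and 5.5368 on the highest Olig2+/+ array. The difference of 0.31 (SE 0.13, 95% interval -0.01 to 0.64) was 0.19 without Olig2+/+ replicate 1.

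Among the proteins that act on ligands or on receptor traffic, Shisa2 and Sfrp1 read higher in Olig2-/-, and Sfrp2 did not differ beyond its spread. Shisa proteins are known from Xenopus to hold Frizzled and FGF receptors in the endoplasmic reticulum. Both Shisa2 probe sets separated the genotypes. Probe set 1423851_a_at read 7.39, 7.83 and 7.60 in Olig2-/-, against 6.55, 6.44 and 6.61 in Olig2+/+. The gap between the groups was 0.77, the widest of the 17 probe sets, and the difference was 1.07 (SE 0.13, 95% interval 0.76 to 1.39), a 2.10-fold higher level. Probe set 1423852_at read 7.83, 7.74 and 7.42 in Olig2-/- and 7.21, 6.85 and 7.12 in Olig2+/+, a difference of 0.60 (SE 0.15). The 2 probe sets thus gave 1 direction but unequal sizes.

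Sfrp1 is a secreted protein with a Frizzled-like domain that binds Wnts. All 5 of its probe sets had a higher mean in Olig2-/-, by 0.23 to 1.05, and 2 of the 5 separated the genotypes. The brightest, 1460187_at, read 8.08, 8.30 and 7.79 in Olig2-/-, against 7.13, 7.79 and 6.53 in Olig2+/+. The separation there was minimal, with 7.7863 on the lowest Olig2-/- array and 7.7851 on the highest Olig2+/+ array. Its difference was 0.90 (SE 0.33, 95% interval 0.10 to 1.71), and 0.60 without Olig2+/+ replicate 5, the lowest array. Probe set 1416594_at read 5.67, 6.03 and 5.32 in Olig2-/- and 4.37, 5.14 and 4.62 in Olig2+/+, a difference of 0.96 (SE 0.26). The groups overlapped at 1448395_at (1.05, SE 0.50), at the dim 1438620_x_at (0.43, SE 0.18), whose suffix marks probes that can also match other transcripts, and at 1428136_at (0.23, SE 0.24). Sfrp1 therefore varied far more within a genotype than the median measured probe set: the SD at 1460187_at was 0.26 in Olig2-/- and 0.63 in Olig2+/+, against a median within-genotype SD of 0.16.

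Sfrp2, the close relative of Sfrp1, read 8.06, 7.31 and 7.17 in Olig2-/-, against 7.19, 7.37 and 7.43 in Olig2+/+ (1448201_at). The highest value came from Olig2-/- replicate 2, and the other 2 Olig2-/- arrays lay within the range of Olig2+/+ or just below it. The difference was 0.18 (SE 0.24, 95% interval -0.42 to 0.79), and -0.09 without Olig2-/- replicate 2. Of the 5 measured genes of the meninges and mesenchyme, 2 were also highest on that array: Col3a1, a fibrillar collagen, read 8.10, 4.04 and 4.09 on the Olig2-/- arrays and 6.20, 4.35 and 4.67 on the Olig2+/+ arrays, and the matrix gene Postn read 7.93, 3.56 and 3.36, against 3.86, 3.56 and 3.51. The other 3 were not, as Fn1, Pdgfra and Foxd1 each had a higher value on an Olig2+/+ array. Their part in the Sfrp2 value was not tested.

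**Figure D2:**
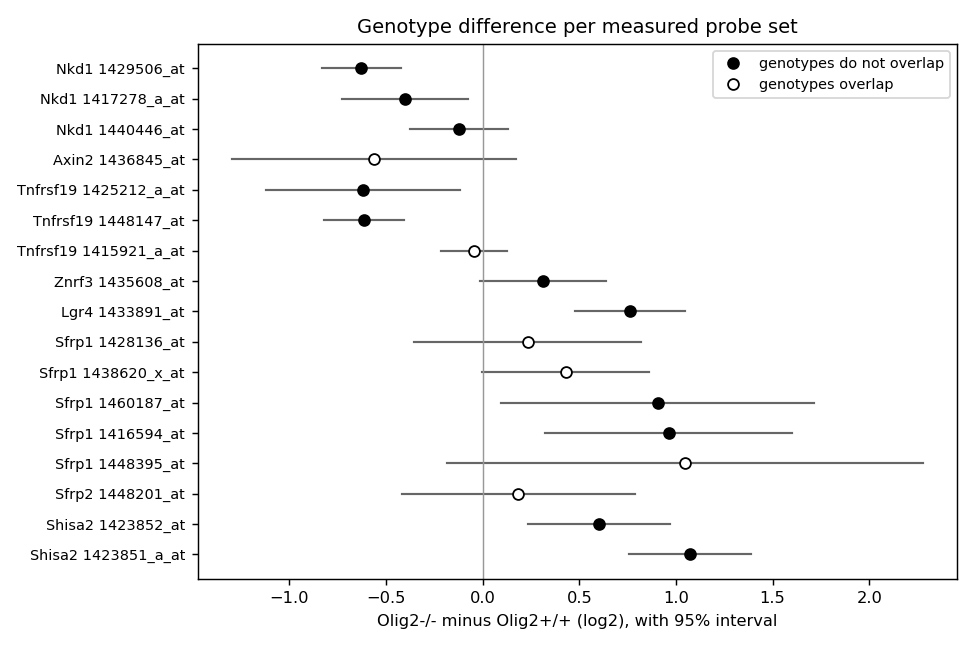
Olig2-/- minus Olig2+/+ difference (log2) of each measured probe set with its 95% interval from limma. Filled points mark the 11 probe sets whose genotypes do not overlap; probe sets of 1 gene point the same way, but their sizes differ, as for Tnfrsf19 (-0.62 to -0.04) and Shisa2 (0.60 to 1.07).

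Probe sets of a gene pointed the same way in each of the 4 genes that had more than 1 measured: all 3 of Nkd1 and all 3 of Tnfrsf19 lower in Olig2-/-, and all 5 of Sfrp1 and both of Shisa2 higher. The dim Nkd1 1440446_at (-0.12) and Tnfrsf19 1415921_a_at (-0.04) add little to this agreement, as their intervals include 0. The former is counted above among the separate probe sets by a gap of only 0.005. By the same measure Sfrp1 1428136_at (-0.36 to 0.82), 1448395_at (-0.18 to 2.28) and 1438620_x_at (-0.002 to 0.86) add little either. Probe sets of a gene are not independent, since they read the same RNA. Leaving out single arrays changed the genes unequally. Without any 1 array the difference at the brightest probe set stayed between -0.69 and -0.58 for Nkd1, between -0.67 and -0.56 for Tnfrsf19, between 0.70 and 0.85 for Lgr4 and between 0.50 and 0.72 for Shisa2. It ranged from -0.76 to -0.27 for Axin2, from 0.60 to 1.22 for Sfrp1 and from 0.19 to 0.40 for Znrf3, and it changed sign for Sfrp2 (-0.09 to 0.36). Without both Olig2-/- replicate 2 and Olig2+/+ replicate 4, the arrays that resembled each other across genotypes, the differences were -0.70 for Nkd1, -0.67 for Tnfrsf19, 0.70 for Lgr4, 0.41 for Shisa2, 1.21 for Sfrp1, -0.59 for Axin2, 0.34 for Znrf3 and -0.07 for Sfrp2.

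**Figure D3:**
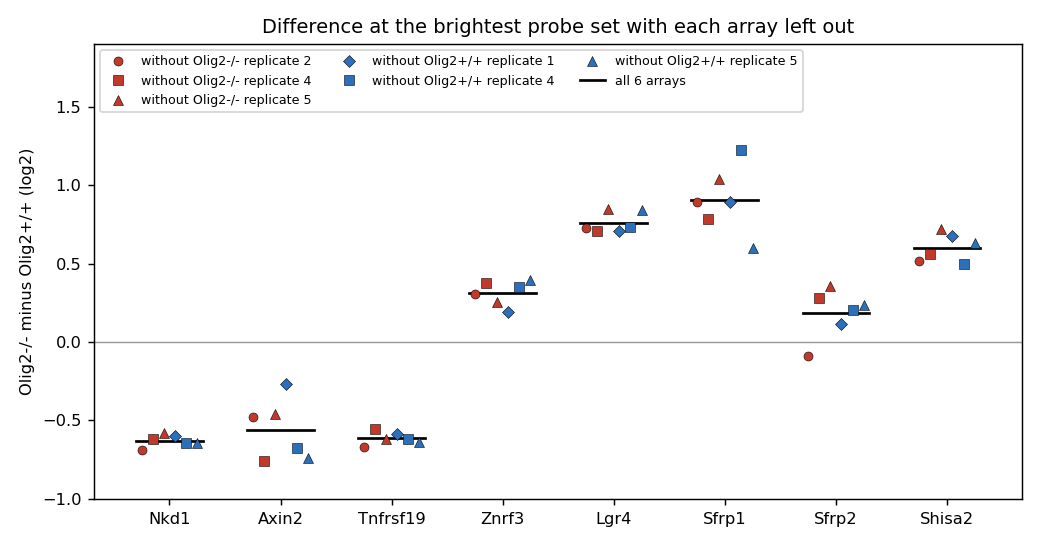
Olig2-/- minus Olig2+/+ difference (log2) at each gene's brightest probe set. The black bar is the value with all 6 arrays and each point the value with the named array left out. Points stay near the bar for Nkd1, Tnfrsf19 and Lgr4, spread for Sfrp1 and Axin2, and cross 0 for Sfrp2.

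By their known roles, the measured directions would favour Wnt signalling in opposite ways if they held and if protein followed transcript. No member passed the test. The intervals of Axin2, Znrf3 and Sfrp2 include 0, as do those of dimmer probe sets of Nkd1, Tnfrsf19 and Sfrp1. An interval without 0 is no test either, because the members were chosen by these differences. Less Nkd1 or Axin2 takes away a brake, and more Lgr4 raises the response to R-spondins. Less Tnfrsf19 would also take away a brake by its role in intestinal stem cells. Its partner there, Lgr5, had no usable level on these arrays. More Sfrp1, Shisa2 or Znrf3 adds a brake. Read instead as targets, lower Axin2, Nkd1 and Tnfrsf19 would go with less beta-catenin activity and higher Znrf3 with more. Signalling itself was not measured on these arrays.

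The rest of the pathway gives the setting. Of 93 other Wnt pathway genes, 53 were measured, of which 24 were higher, 28 were lower in Olig2-/- and 1 was equal; Apcdd1 and Lef1 stand in 2 of the role lists below. Their median difference was -0.02, against -0.0015 over all 10630 genes measured. None passed limma's adjusted threshold. Every Olig2-/- array was above every Olig2+/+ array for 5 of the 53 (8.45% of all genes) and below for 9 (7.96%). The genes named for each role below are the ones of lowest p in its list unless said otherwise, and all are short of the threshold.

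Of the R-spondins, the ligands of Lgr4, 3 were measured. Rspo2 read 6.27, 6.44 and 5.93 in Olig2-/-, against 5.74, 5.51 and 6.10 in Olig2+/+. The groups overlapped at 1 array, and the difference was 0.43 (SE 0.20, limma adjusted p = 0.511). Rspo1 differed by -0.14 (SE 0.22) and Rspo3 by -0.03 (SE 0.21). Rspo4, Lgr6 and Rnf43, the close relative of Znrf3, were not measured.

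Of 34 Wnt ligands and receptors, 14 were measured, 7 higher and 7 lower, with a median difference of -0.01. The receptor Fzd1 differed by -0.45 (SE 0.07), with separate groups, although its second probe set differed by -0.01. Fzd5 was 0.35 higher (SE 0.15) and Fzd8 0.31 higher (SE 0.13), both with overlap. Ror2, a receptor for Wnt5a, was dim and differed by 0.15 (SE 0.07).

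Of 17 other secreted or membrane antagonists, 6 were measured, 1 higher, 4 lower and 1 equal, with a median difference of -0.10. Apcdd1, a membrane-bound Wnt inhibitor, differed by -0.18 (SE 0.07), with separate groups. All 5 of its probe sets were lower in Olig2-/-, by up to -0.74. Wif1, which binds Wnts outside the cell, differed by -0.47 (SE 0.21) with overlap. It was dim and gave the same value, 3.2899, on Olig2-/- replicates 2 and 5 and on Olig2+/+ replicate 1. Draxin differed by -0.22 (SE 0.24) and Dkk3 by 0.09 (SE 0.07), with -0.29 at the other Dkk3 probe set.

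Of 18 cytoplasmic transducers, 17 were measured, 10 higher and 7 lower, with a median difference of 0.02. Gsk3b, the kinase that marks beta-catenin for destruction, was 0.86 higher (SE 0.14) at its brightest probe set, but its 6 probe sets ranged from -1.26 to 0.86, so no direction can be given. Axin1, the constitutive partner of Axin2, differed by -0.36 (SE 0.10) with separate groups, and by 0.04 at its other probe set. Dvl1, a Dishevelled protein, was 0.31 higher (SE 0.11) at 1 probe set and -0.38 at the other. Csnk1e, a casein kinase, differed by -0.47 (SE 0.19), with all 3 probe sets lower.

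Of 12 TCF/LEF factors and nuclear partners, 9 were measured, 1 higher and 8 lower, with a median difference of -0.17, where 49.3% of all genes were higher. Of the 8, 4 had separate groups (7.96% of all genes) and 2 had an unadjusted p below 0.05 in limma. Lef1 (-0.02), Tle1 (-0.02) and Pygo1 (-0.06), named beyond the genes of lowest p, lay near 0. Tcf7l2 read 7.37, 7.70 and 7.96 in Olig2-/-, against 8.61, 8.50 and 7.99 in Olig2+/+. All 4 of its probe sets were lower, by -0.94 to -0.49. The co-repressor Tle3 differed by -0.34 (SE 0.11), Tle4 by -0.17 (SE 0.09) and Pygo2 by -0.20 (SE 0.10), and single probe sets of Tle3 (0.25) and Tle4 (0.36) went the other way.

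Of 12 other genes widely used as Wnt targets, 6 were measured, 4 higher and 2 lower, with a median difference of 0.02. Apcdd1, described above, was lower. Id2, an inhibitor of bHLH factors that BMP also induces, was 0.33 higher (SE 0.08) with separate groups. Myc differed by 0.08 (SE 0.11). Lef1 differed by -0.02 (SE 0.06), and it gave the same value on 4 of the 6 arrays. Ccnd1, a cyclin named beyond the 4 of lowest p after its value was seen, differed by 0.01 at its brightest probe set and by as much as -0.71 at another.

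**Figure D4:**
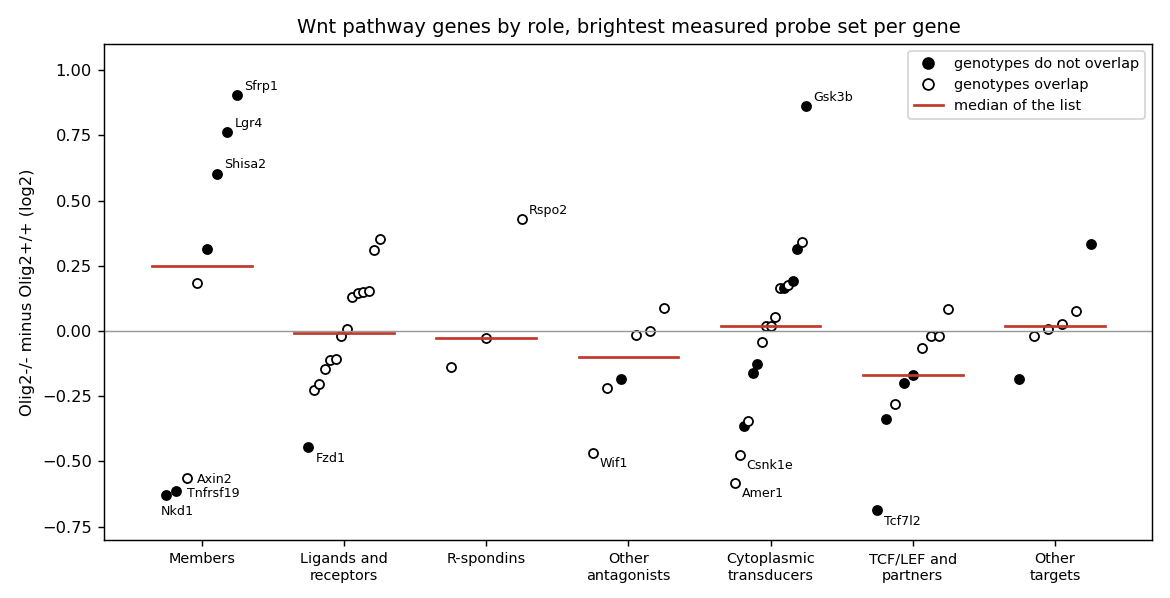
Olig2-/- minus Olig2+/+ difference (log2) of each measured gene at its brightest probe set, by role; red lines are list medians and filled points genes whose genotypes do not overlap. The members, chosen with these differences known, run from -0.63 to 0.90. Other Wnt genes reach -0.69 (Tcf7l2) and 0.86 (Gsk3b). The Gsk3b probe sets disagree in direction, however, and Rspo2 is next highest at 0.43.

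Markers of the cells in the dissected piece were compared as the mean log2 level of each list on each array. The lists were chosen with earlier results of these data known, so the permutation p-values below are a description only. The thalamus and habenula list, 10 of 10 measured, stood at 6.20, 6.48 and 6.60 in Olig2-/- and 6.92, 7.11 and 6.85 in Olig2+/+ (exact permutation p = 0.1, two-sided, the smallest that 3 against 3 can give). The difference in mean level was -0.53, and -0.34 without both Olig2-/- replicate 2 and Olig2+/+ replicate 4. Tcf7l2 belongs to that list as well, and Gbx2, a homeobox gene of thalamic neurons, differed by -1.38 (SE 0.25). The neuronal list, 12 measured, ranged from 10.32 to 10.36 in Olig2-/- and from 10.37 to 10.58 in Olig2+/+ (exact permutation p = 0.1), with the nearest arrays less than 0.01 apart. Its difference in mean level was -0.12, and -0.07 without Olig2+/+ replicate 1. The axonal gene Mapt differed most within it, by -0.56 (SE 0.25), but its 4 probe sets ranged from -0.56 to 0.02. The radial glia list, 12 measured, ranged from 9.75 to 9.82 in Olig2-/- and from 9.71 to 9.76 in Olig2+/+ (exact permutation p = 0.2). In it 6 genes were higher and 6 lower, with a median difference of 0.0014. Groups were separate upward for 3 of them (8.45% of all genes) and downward for 1 (7.96%). The 3 were Notch2 (0.71, SE 0.13), Hes1 (0.40, SE 0.12) and Vim (0.18, SE 0.08), though another Vim probe set differed by -0.10. Id4 differed by -0.24 (SE 0.09), though another Id4 probe set differed by 0.13. The list level was separate, with Olig2-/- above, without Olig2-/- replicate 5 (difference 0.09) and without Olig2+/+ replicate 5 (0.08). The remaining lists overlapped with all 6 arrays (exact permutation p from 0.2 to 1). The ventral telencephalon list differed by -0.08 in mean level, and by -0.02 without Olig2+/+ replicate 1. Without both Olig2-/- replicate 2 and Olig2+/+ replicate 4 its groups were separate, with a difference of -0.14. The microglia list (0.20) and the meninges list (-0.67) were separate there too, with fewer arrays to separate. The meninges list, 5 of 12 measured, stood at 7.12, 5.07 and 5.10 in Olig2-/- and 5.96, 5.30 and 5.55 in Olig2+/+, and its difference in mean level of 0.16 was -0.52 without Olig2-/- replicate 2. Its defining collagen Col1a1 was not measured; its brightest probe set read 4.36 on Olig2-/- replicate 2 and 2.27 to 2.39 on the other arrays. The hem, dorsal midline and choroid plexus list, 4 of 12 measured, ranged from 6.30 to 7.82 in Olig2-/- and from 6.21 to 7.78 in Olig2+/+. Within it the choroid plexus gene Ttr read 9.99, 6.42 and 4.85 in Olig2-/-, and 8.36, 10.96 and 3.46 in Olig2+/+, and the midline gene Lmx1a was at 2.27 on all arrays. The part of these cell types in the differences of Nkd1, Axin2, Tnfrsf19, Lgr4, Znrf3, Sfrp1 and Shisa2 was not tested.

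**Figure D5:**
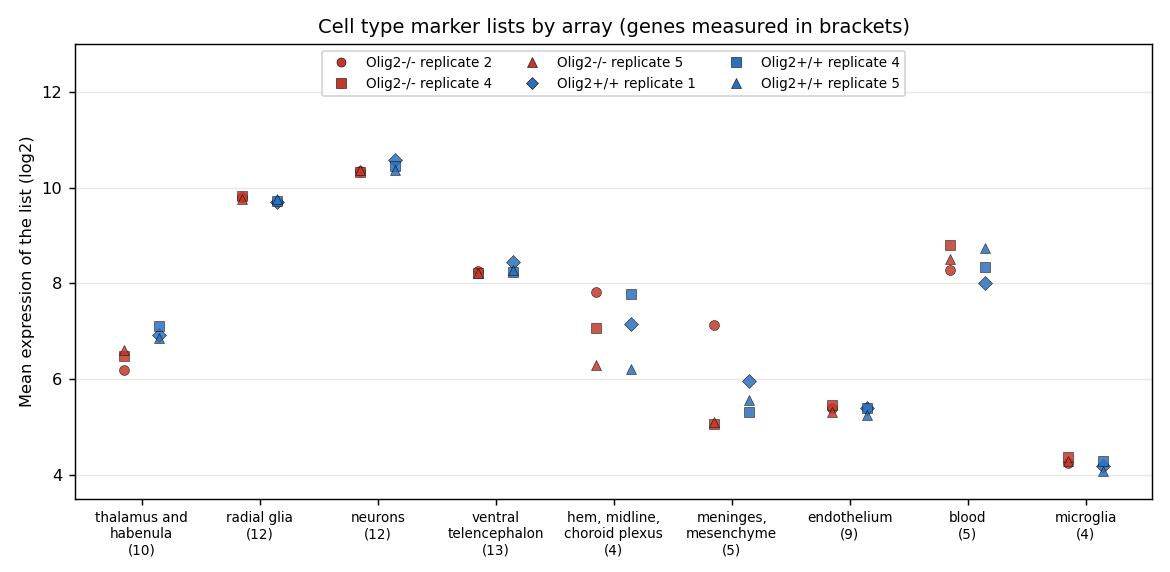
Mean expression (log2) of each marker list on each array, with Olig2-/- in red and Olig2+/+ in blue. The thalamus and neuron lists are lower on all 3 Olig2-/- arrays, the meninges list is high on Olig2-/- replicate 2 (7.12), and the hem, midline and choroid plexus list varies widely in both genotypes.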

How the data were processed

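The authors deposited log2 expression values per probe set of Affymetrix MOE430 2.0 arrays. Per the labels' design text, GCOS and MAS 5.0 handled the scans, and GCRMA turned quantile-normalized signals into log2 values. The submitters' processing notes list these tools too. GCRMA leaves a floor near 2.27, and about 33.4% of the values on each array (33.18% to 33.70%) lie within 0.03 of it, so differences of dim probe sets are compressed. The platform annotation named 1 gene for 34945 of the 45037 probe sets that are not controls, several for 932 and none for 9160.

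The genotypes were compared in R 4.3.3 by limma 3.58.1 (a linear model with eBayes moderation, two-sided, Benjamini-Hochberg) over the 22565 measured probe sets, and SEs and 95% intervals come from that fit. A gene was represented by its measured probe set of highest mean, and 10630 genes were. All members were described, with the 4 genes of lowest p per pathway list where none passed. Marker lists were compared by exact permutation tests over arrays. The members and lists were chosen with earlier results of these data known. The fit was tested on simulated data. Alternatives were arrays left out, array weights, other filters, averaging over probe sets, median centring, the replicate number as a block, a second quantile normalization, and a variance trend with robust moderation.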

Additional observations from a re-analysis of the deposited data

How the results depend on the processing

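In limma 0 probe sets passed an adjusted p of 0.05 under all 15 alternatives. The 2121 probe sets at an unadjusted p below 0.05 became 3491 with array weights, 3276 without both Olig2-/- replicate 2 and Olig2+/+ replicate 4, and between 1121 and 3490 with 1 array left out (1121 without Olig2-/- replicate 5, 1205 without Olig2-/- replicate 4, 1402 without Olig2+/+ replicate 1 and 3490 without Olig2+/+ replicate 4); the cause was not tested. The median of the other Wnt pathway genes stayed between -0.06 and 0.00. Nkd1, Axin2, Lgr4, Tnfrsf19, Sfrp1, Shisa2 and Znrf3 kept their direction under all 16 alternatives, and Sfrp2 under 13. Other filters and the variance trend cannot change the difference at a probe set. Averaging cannot change it for a gene with 1 measured probe set, so those alternatives are no check of direction. Averaging the probe sets of each gene gave -0.38 for Nkd1, -0.43 for Tnfrsf19 and 0.84 for Shisa2, and array weights gave -0.34 for Axin2. The labels do not say that replicate numbers 4 and 5 mark pairs, and deviations from the genotype means correlated at -0.29 for number 4 and 0.32 for number 5. With the replicate number as a block, 2014 probe sets had an unadjusted p below 0.05 in limma and 0 passed. Only numbers 4 and 5 occur in both genotypes, so the blocked differences rest on the arrays of those numbers alone. They were -0.18 for Axin2, 0.18 for Znrf3 and -0.16 for Sfrp2. The counts of separate probe sets and the list levels without single arrays were added after seeing the data. Among the differences that did not pass were Shisa2 at 1.07, a member chosen by its difference, and Olig1 at 1.69 on the log2 scale (limma adjusted p = 0.511 each). Why no probe set passed was not tested.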
